A study of Homo sapiens with 10 samples.

Results

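The genes described here are 7 claudins, CLDN1, CLDN3, CLDN4, CLDN6, CLDN7, CLDN10 and CLDN12, taken by name from the 19893 genes of a single-cell count table of Kuramochi, an established BRCA2-mutant line of human high-grade serous ovarian cancer. The 5 conditions were drug-naive controls, persister cells (naive cells after 9 days of olaparib at 10 µM or at 320 µM) and adapted cells (olaparib-resistant populations at either dose). Olaparib inhibits the DNA repair enzymes PARP1 and PARP2, on which cells without working BRCA2 depend. All conditions are this 1 line, and the labels do not say how long the adapted populations grew in drug or whether they are clones. Hashing antibodies tagged the conditions, which were mixed in 2 pools, so each condition has 1 value per pool. The labels call the pools replicates without naming separate cultures, and all p-values rest on pool-to-pool spread that could be technical alone.

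Claudins are small membrane proteins whose outer loops join neighbouring epithelial cells at the tight junction. Some seal the space between cells and others form pores for ions, and most bind the scaffold ZO-1 (gene TJP1) through their tails. CLDN3, CLDN4 and CLDN7 are known for high levels in ovarian carcinoma, and CLDN3 and CLDN4 are receptors of the Clostridium perfringens enterotoxin.

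On the GRCh38 build (GENCODE 29), the spans of CLDN3 (chr7:73768997-73770270, minus strand) and CLDN4 (chr7:73799542-73832693, plus strand) lie 29.3 kb apart with 0 protein-coding genes between them. The RefSeq start window of CLDN4 lies near the far end of its span, at chr7:73830746-73831045, so the starts are farther apart than the spans. The GENCODE spans of CLDN1 (chr3:190305701-190322475, minus strand) and CLDN16 (chr3:190322541-190412143, plus strand) lie 65 bases apart. The RefSeq start windows of CLDN16 lie elsewhere, at chr3:190290111-190290410, beyond the far end of CLDN1, and at chr3:190387913-190388212. CLDN7 (chr17:7259903-7263983, minus strand) overlaps ELP5 on the other strand and AC003688.1 on its own. CLDN12 (chr7:90383721-90513402, plus strand) overlaps GTPBP10 and CDK14, CLDN6 (chr16:3014712-3020071, minus strand) overlaps TNFRSF12A, and CLDN10 (chr13:95433604-95579759, plus strand) overlaps DZIP1 and CLDN10-AS1. How reads in such overlaps were assigned is not given in the sources used here, so the counts of these last 4 genes carry that uncertainty.

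Promoter windows of CLDN1, CLDN3, CLDN4 and CLDN7 are shown because these genes moved most and differed in their order over the conditions. Each window runs from 250 bases before to 50 after a RefSeq start (GRCh38.p14), 5′ to 3′ on the gene's strand: chr3:190322397-190322696 (minus), chr7:73770221-73770520 (minus), chr7:73830746-73831045 (plus) and, for the second of 2 CLDN7 starts, chr17:7262429-7262728 (minus). Capitals mark CAGGTG, the E-box letters bound by SNAI and ZEB repressors, and GGGCGG, the GC box, on either strand; neither motif contains the other.
CLDN1: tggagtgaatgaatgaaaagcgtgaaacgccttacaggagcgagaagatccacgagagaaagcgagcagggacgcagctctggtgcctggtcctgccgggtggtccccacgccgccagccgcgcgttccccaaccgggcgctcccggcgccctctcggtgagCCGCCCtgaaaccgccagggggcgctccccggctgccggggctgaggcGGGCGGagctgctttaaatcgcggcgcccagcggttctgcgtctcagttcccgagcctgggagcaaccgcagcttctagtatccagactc
CLDN3: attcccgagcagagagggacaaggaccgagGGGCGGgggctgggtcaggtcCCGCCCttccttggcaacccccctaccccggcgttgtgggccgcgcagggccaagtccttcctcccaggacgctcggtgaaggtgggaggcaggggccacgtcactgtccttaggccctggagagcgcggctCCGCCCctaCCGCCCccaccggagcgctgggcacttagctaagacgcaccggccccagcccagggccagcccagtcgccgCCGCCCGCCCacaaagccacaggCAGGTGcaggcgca
CLDN4: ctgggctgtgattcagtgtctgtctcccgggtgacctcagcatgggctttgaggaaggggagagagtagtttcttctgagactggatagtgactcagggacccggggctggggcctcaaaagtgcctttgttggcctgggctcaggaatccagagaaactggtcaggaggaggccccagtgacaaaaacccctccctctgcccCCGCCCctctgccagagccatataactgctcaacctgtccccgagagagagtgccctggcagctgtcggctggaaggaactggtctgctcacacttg
CLDN7: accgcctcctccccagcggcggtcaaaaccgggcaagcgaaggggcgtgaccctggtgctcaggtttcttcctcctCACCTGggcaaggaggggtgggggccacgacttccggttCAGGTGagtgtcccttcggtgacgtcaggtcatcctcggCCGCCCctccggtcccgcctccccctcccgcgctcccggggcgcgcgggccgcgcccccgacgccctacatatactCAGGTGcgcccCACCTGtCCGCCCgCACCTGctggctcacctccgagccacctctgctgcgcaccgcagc
CAGGTG matched 5 times in the CLDN7 window, 1 time in that of CLDN3 and 0 times in those of CLDN1 and CLDN4, and 20.6% of 27305 RefSeq windows of this length held a match. GGGCGG matched 6 times for CLDN3, 2 times each for CLDN1 and CLDN7 and 1 time for CLDN4, against 44.6% of windows with a match. Both shares were taken over the first listed start of each gene. The CLDN7 window shown was chosen for its matches, and that of the other, first listed CLDN7 start (chr17:7263164-7263463) held 0 of either motif. The CLDN7 counts therefore cannot be set against these shares. A match is a stretch of letters and not a site shown to be bound.

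The table held 13800 cells, 263 to 2435 for each condition and pool, with 3532281 to 23189583 UMIs (unique molecule counts) in each of the 10 sums over cells. The 10 µM persister sums were the smallest. Levels are CPM, UMI counts scaled to a common library size with trimmed means of M-values (TMM), and no length scaling was applied because the assay reads 3′ ends. In such sums fewer cells with a transcript and less of it per cell cannot be told apart. Of 12 markers of the labelled epithelial line, the summed level was 4558 and 4714 CPM in control. It was 3591 and 2948 CPM in 10 µM and 2596.5 and 2567.7 CPM in 320 µM persister cells. Adapted cells held 2617 and 2556 CPM at 10 µM and 1368 and 1239 CPM at 320 µM. CDH1 and MUC16 were at or under the floor of 3 UMIs in both adapted conditions, and CDH1 also in 320 µM persister cells. In control CDH1 had only 9 and 10 UMIs and MUC16 11 and 10. Against control, 1 of the 11 tested line markers was higher and 10 were lower in 320 µM adapted cells. In 320 µM persister cells 0 were higher and 7 lower, and in 10 µM adapted cells 3 were higher and 7 lower. The keratin KRT7 was among the higher ones in 10 µM adapted cells, at 40.5 and 42.2 CPM against 2.92 and 2.76 CPM in control. Most went the other way there. SOX17 held 14.6 and 18.2 CPM against 289 and 360 CPM in control, and WT1 1.89 and 1.87 against 24.0 and 25.8 CPM. Fibroblast markers summed to 48.8 and 48.9 CPM in control and 320.4 and 309 CPM in 10 µM adapted cells, with COL1A2 at the floor in all conditions. Of 8 leukocyte markers, 6 were at the floor in every condition, PTPRC and CD3E among them, and the other 2, CD14 and CD68, were tested. The pools shared 13 cell barcodes.

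A deposited list whose name ends in g1 holds 7762 of the cells (56.2%); what it stands for is not given in the sources used here. MKI67, a gene of dividing cells, stood at 2.28 to 10.8 CPM in the 10 sums of listed cells and at 138 to 241 CPM in the 10 sums of the others. Listed cells were 42.3% and 43.5% of control, 75.3% and 76.0% of 10 µM persister, 78.7% and 74.9% of 320 µM persister, 62.9% and 67.0% of 10 µM adapted and 53.9% and 55.1% of 320 µM adapted cells. Since this share moves with treatment, values for listed and unlisted cells are given where the call or direction of a called change differs, or the fold moves by more than 1.5 times.

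CLDN4, a sealing claudin, held 17.9 and 18.9 CPM in pools 1 and 2 of control. Persister cells held 109.6 and 106 CPM at 10 µM and 137 and 153 CPM at 320 µM. Every persister sum was above every control sum, with the 320 µM sums highest. Adapted cells held 29.9 and 35.5 CPM at 10 µM, above control, and 6.26 and 6.27 CPM at 320 µM, below it. From high to low the order was 320 µM persister, 10 µM persister, 10 µM adapted, control and 320 µM adapted cells, and each neighbouring pair differed past the test.

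CLDN3, the other enterotoxin receptor, held 46.2 and 47.0 CPM in control, 102 and 89.4 CPM in 10 µM persister and 123 and 121 CPM in 320 µM persister cells. Both adapted conditions were below control, with 14.7 and 15.9 CPM at 10 µM and 3.01 and 3.54 CPM at 320 µM. The 5 conditions did not overlap. The order was that of CLDN4 except that control stood above 10 µM adapted cells, and each neighbouring pair differed past the test.

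CLDN1, a barrier claudin of skin and many epithelia, was highest at the lower persister dose. It held 17.6 and 15.5 CPM in control, 88.5 and 119 CPM in 10 µM persister and 23.3 and 20.8 CPM in 320 µM persister cells. The 10 µM persister pools lay apart from each other, but both were far above all other sums. Adapted cells held 12.4 and 13.5 CPM at 10 µM and 6.39 and 6.39 CPM at 320 µM. The order was 10 µM persister, 320 µM persister, control, 10 µM adapted and 320 µM adapted cells, each step past the test.

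CLDN7, which binds the adhesion molecule EPCAM, was rarer. Control held 8.22 and 8.44 CPM, 10 µM persister cells 11.6 and 18.3 CPM and 320 µM persister cells 2.52 and 3.38 CPM. Adapted cells held 12.7 and 13.5 CPM at 10 µM and 0.814 and 0.697 CPM at 320 µM, the latter from 13 and 12 UMIs. Both conditions at 10 µM were above control and both at 320 µM below it. The 10 µM conditions overlapped and did not differ past the test.

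CLDN12, whose tail lacks the scaffold-binding end of most claudins, moved least. It held 7.03 and 6.70 CPM in control, 10.3 and 11.8 CPM in 10 µM persister, 10.1 and 8.03 CPM in 320 µM persister, 13.6 and 14.2 CPM in 10 µM adapted and 7.70 and 8.19 CPM in 320 µM adapted cells. All its sums lay between 6.70 and 14.2 CPM. Ordered by mean, 10 µM adapted cells came first, then 10 and 320 µM persister, 320 µM adapted and control cells, and no neighbouring pair differed past the test.

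CLDN6, a claudin of embryonic epithelium, had 6 UMIs among all 139130201 of the table, and CLDN10, an ion-pore claudin of kidney and glands, had 2. No sum held more than 2 UMIs of CLDN6 or 1 of CLDN10, so both were under the floor of 3 UMIs in all 10 sums. Neither had enough UMIs to enter the tests.

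**Figure D1:**
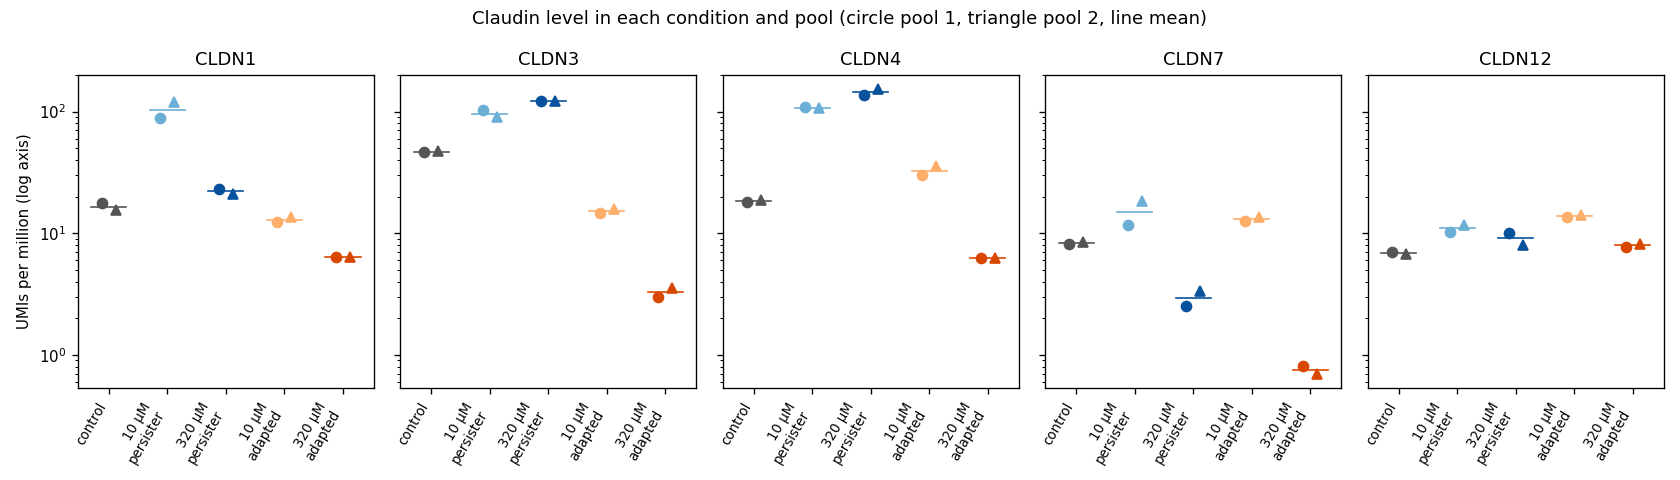
Level of CLDN1, CLDN3, CLDN4, CLDN7 and CLDN12 in CPM (log axis) in the 5 conditions; circles are pool 1, triangles pool 2, lines the mean of both. CLDN3 and CLDN4 are highest in the persister conditions, CLDN1 in 10 µM persister cells, and CLDN12 stays between 6.70 and 14.2 CPM.

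The first question was what short olaparib exposure does to the claudins. In 10 µM persister cells all 5 tested claudins rose against control, where 27.3% of the 13330 genes tested were called higher, 29.3% lower and 56.6% either way. Their median log2 change was 1.04, against -0.03 over all genes. CLDN1 rose by 2.65 on the log2 scale (SE 0.11, edgeR quasi-likelihood test with Benjamini-Hochberg adjustment, adjusted p = 3.46e-15), a fold of 6.29. CLDN4 rose by 2.55 (SE 0.09) and CLDN3 by 1.04 (SE 0.07). CLDN7 rose by 0.85 (SE 0.17, edgeR adjusted p = 0.000111) and CLDN12 by 0.69 (SE 0.18, edgeR adjusted p = 0.00138). Both tested leukocyte markers moved with this comparison, CD14 from 0.265 and 0.170 CPM in control to 11.3 and 6.97 CPM and CD68 from 0.531 and 0.721 to 11.1 and 13.7 CPM, and their part in the result was not tested. CD68 was not raised in these cells alone. It held 3.21 and 1.86 CPM in 320 µM persister, 6.40 and 7.22 CPM in 10 µM adapted and 17.4 and 18.4 CPM in 320 µM adapted cells. Of the 11 tested line markers, 4 were higher and 5 lower. Without pool 2 of the persister cells, CLDN7 (0.47, edgeR adjusted p = 0.0958) and CLDN12 (0.58, edgeR adjusted p = 0.0542) were not called. In unlisted cells CLDN1 (2.30) and CLDN4 (2.70) rose, while CLDN3 (0.34), CLDN12 (0.44) and CLDN7 (-0.02) did not pass, with edgeR adjusted p of 0.116, 0.379 and 0.981. In listed cells the rise of CLDN4 was smaller, at 1.86.

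At 320 µM other claudins led. CLDN4 rose by 2.98 on the log2 scale (SE 0.08, edgeR adjusted p = 3.35e-23), a fold of 7.87, and CLDN3 by 1.39 (SE 0.07). CLDN7 fell by 1.497 (SE 0.21, edgeR adjusted p = 3.75e-07). CLDN1 and CLDN12 rose by 0.42 and 0.40 (edgeR adjusted p = 0.00727 and 0.0206). That made 4 higher and 1 lower, where 26.3% of all genes tested were higher, 28.3% lower and 54.6% called either way. The median of the claudins was 0.42, against -0.01 over all genes. CLDN1 went opposite ways in listed (0.999, edgeR adjusted p = 0.000335) and unlisted cells (-1.06, edgeR adjusted p = 8.42e-05). CLDN12 was not called in unlisted cells (0.17, edgeR adjusted p = 0.617). For CLDN4 both sets gave less than all cells together, 2.503 in listed and 2.15 in unlisted cells, and CLDN7 gave -2.84 in unlisted cells. Without pool 2 of control, or without pool 1 of these persister cells, neither small rise was called, with edgeR adjusted p of 0.0648 and 0.113 for CLDN1 and 0.0893 and 0.344 for CLDN12.

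Cells adapted to 10 µM showed a split. CLDN3 fell by 1.61 on the log2 scale against control (SE 0.08, edgeR adjusted p = 6.45e-17). CLDN12 rose by 1.02 (SE 0.12), CLDN4 by 0.83 (SE 0.08) and CLDN7 by 0.65 (SE 0.13), while CLDN1 fell by 0.35 (SE 0.12, edgeR adjusted p = 0.0153). Over all genes tested 33.7% were higher, 33.4% lower and 67.1% called either way, and the medians were 0.65 for the claudins and 0.00 for all genes. The fibroblast marker COL1A1 moved with this comparison, from 0.884 and 1.19 CPM in control to 93.6 and 90.8 CPM, and 7 of 7 tested fibroblast markers were higher; their part in the result was not tested. The CLDN1 call was lost without pool 1 of control (edgeR adjusted p = 0.12) or pool 1 of the adapted cells (0.116), and listed cells alone gave 0.27 (edgeR adjusted p = 0.25), against -1.12 for unlisted cells. In unlisted cells CLDN7 was not called (0.32, edgeR adjusted p = 0.157).

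Cells adapted to 320 µM had the lowest levels of CLDN1, CLDN3, CLDN4 and CLDN7 among the 5 conditions. CLDN3 fell by 3.82 on the log2 scale against control (SE 0.10, edgeR adjusted p = 1.68e-23), a fold of 14.2, and CLDN7 by 3.45 (SE 0.23), a fold of 10.9. CLDN4 fell by 1.55 (SE 0.11) and CLDN1 by 1.37 (SE 0.14). CLDN12 was not called, at 0.21 (SE 0.13, edgeR adjusted p = 0.133). So 0 of the 5 rose and 4 fell, where 37.6% of all genes tested were higher, 36.9% lower and 74.5% called either way. Scaling by library totals in place of TMM moved the median of all genes by -0.23, and higher genes made up 37.4% of calls against 50.5%. The median was -1.55, against 0.01 over all genes. The 4 calls were made in listed and in unlisted cells as well, with -2.14 and -0.88 for CLDN4 and -0.69 and -1.85 for CLDN1. The summed level of the 12 line markers moved with them, as given above. The leukocyte marker CD68 was raised here too, and the fibroblast marker THY1 stood at 126 and 121 CPM against 36.2 and 36.1 CPM in control. Of 7 tested fibroblast markers 2 were higher and 1 lower. The part of these markers in the result was not tested.

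The 4 comparisons above share the 2 control sums and are not independent of one another.

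**Figure D2:**
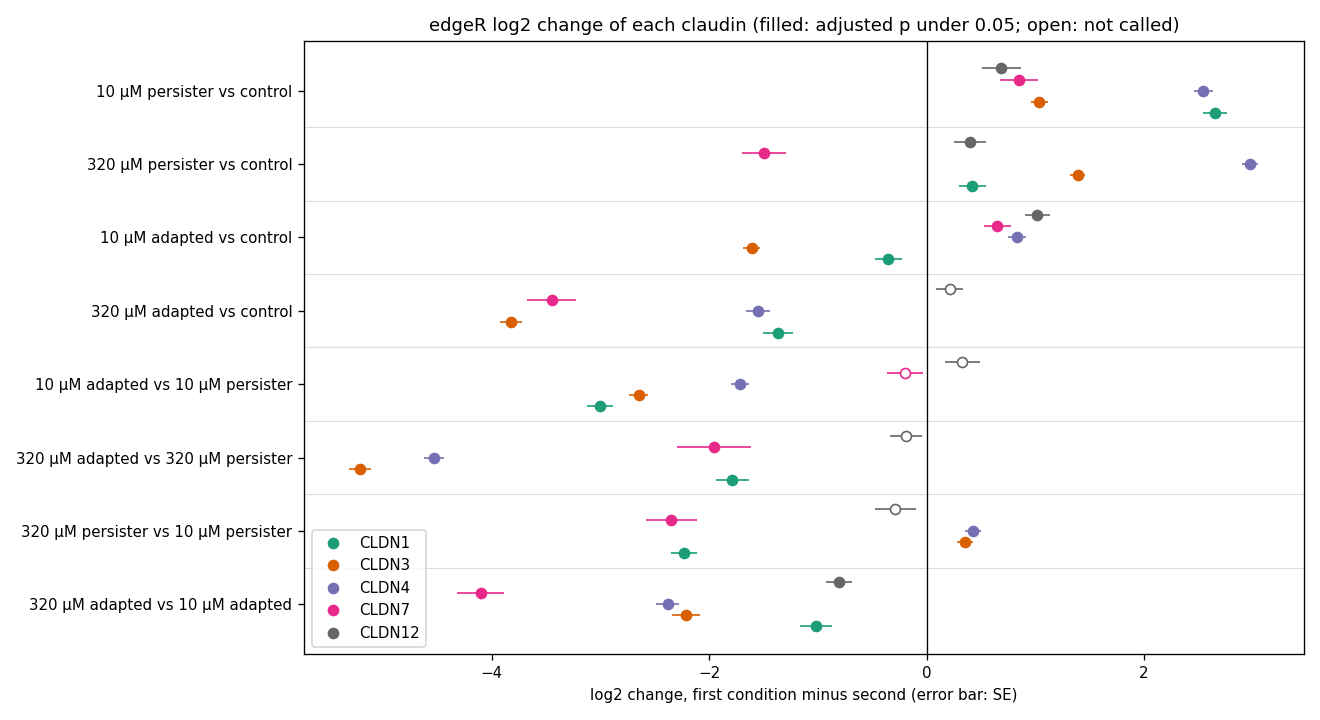
edgeR log2 change of the 5 tested claudins (first condition minus second) in the 8 comparisons; bars are standard errors, filled points have an adjusted p under 0.05 and open points do not. CLDN3 and CLDN4 lie right of 0 in both persister conditions against control and left of 0 in all 3 comparisons of 320 µM adapted cells.

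Adapted cells were then set against persister cells at the same dose. At 10 µM, CLDN1 fell by 3.004 on the log2 scale in adapted cells (SE 0.12, edgeR adjusted p = 1.45e-15). CLDN3 fell by 2.65 (SE 0.09) and CLDN4 by 1.72 (SE 0.08). CLDN7 (-0.20, edgeR adjusted p = 0.316) and CLDN12 (0.33, edgeR adjusted p = 0.0819) were not called. With 0 higher and 3 lower, the claudins compare with 31.4% of all genes tested higher, 29.3% lower and 60.7% called either way (higher genes were 51.8% of calls, or 38.9% with library totals). The medians were -1.72 for the claudins and 0.06 for all genes. Single sums decide the CLDN7 value: it was -0.49 without pool 1 of the persister cells (edgeR adjusted p = 0.0296) and 0.18 without pool 2 (edgeR adjusted p = 0.53). Unlisted cells gave it as 0.34 (edgeR adjusted p = 0.578).

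At 320 µM the gap between adapted and persister cells was wider for CLDN3 and CLDN4. CLDN3 fell by 5.21 on the log2 scale (SE 0.10, edgeR adjusted p = 7.00e-27), a fold of 37.1. CLDN4 fell by 4.53 (SE 0.09), a fold of 23.1. CLDN7 fell by 1.95 (SE 0.34) and CLDN1 by 1.79 (SE 0.15). CLDN12, at -0.19 (edgeR adjusted p = 0.265), was not called and its sums overlapped. Among all genes tested 34.1% were higher, 32.6% lower and 66.7% called either way (higher genes were 51.2% of calls, or 33.6% with library totals). The medians were -1.95 for the claudins and 0.03 for all genes. In unlisted cells the CLDN7 value was -1.05 and not called (edgeR adjusted p = 0.317), and the falls of CLDN4 (-3.03) and CLDN1 (-0.78) were smaller there.

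Among persister cells the dose moved the claudins in opposite ways. CLDN7 fell by 2.35 on the log2 scale from 10 to 320 µM (SE 0.24, edgeR adjusted p = 1.39e-09) and CLDN1 by 2.23 (SE 0.12). CLDN3 (0.35, SE 0.07) and CLDN4 (0.43, SE 0.08) were higher at 320 µM, and CLDN12 was not called (-0.29, edgeR adjusted p = 0.211). Over all genes tested 25.3% were higher, 24.4% lower and 49.7% called either way, with medians of -0.29 and 0.03. CLDN4 turned in unlisted cells (-0.55, edgeR adjusted p = 0.0318), while listed cells gave 0.64. Unlisted cells gave -3.37 for CLDN1 and 1.32 for CLDN3.

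Among adapted cells all 5 tested claudins were lower at 320 than at 10 µM, where 33.4% of all genes tested were higher, 32.4% lower and 65.8% called either way (higher genes were 50.8% of calls, or 37.5% with library totals). CLDN7 fell by 4.10 on the log2 scale (SE 0.22, edgeR adjusted p = 5.74e-16), a fold of 17.2. CLDN4 fell by 2.38 (SE 0.10) and CLDN3 by 2.21 (SE 0.13). CLDN1 fell by 1.02 (SE 0.15) and CLDN12 by 0.81 (SE 0.12). The median was -2.21, against 0.02 over all genes, and the 5 calls were also made in listed and in unlisted cells. CLDN4 gave -1.64 in the latter.

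Whether the dose effect differed between adapted and persister cells was tested as the difference of both log2 changes in 1 fit. It was called for CLDN3 (-2.57, SE 0.15), CLDN4 (-2.81, SE 0.13), CLDN7 (-1.76, SE 0.38) and CLDN1 (1.22, SE 0.20), with edgeR adjusted p of 5.17e-15, 3.57e-17, 0.000296 and 2.53e-05. The CLDN1 value has the opposite sign to the others, since its fall with dose was larger among persister than among adapted cells. Of all genes tested 23.4% were higher, 25.9% lower and 49.3% called either way; the medians were -1.76 and -0.03. CLDN12, at -0.52 (edgeR adjusted p = 0.0521), was not called, but was with the pool as a block (edgeR adjusted p = 0.0475) or without pool 2 of 320 µM persister cells (-0.68, edgeR adjusted p = 0.0215). CLDN7 was not called in unlisted cells (-1.39, edgeR adjusted p = 0.309), where CLDN1 gave 2.64 and CLDN4 -1.09.

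The 7 claudins summed to 97.0 and 96.5 CPM in control, 322 and 344 CPM in 10 µM persister and 296 and 307 CPM in 320 µM persister cells. Adapted cells held 83.4 and 92.6 CPM at 10 µM and 24.3 and 25.1 CPM at 320 µM. All 24 claudins in the table together held 570.0 and 609 CPM in 10 µM persister and 340.0 and 354 CPM in 320 µM persister cells, and the shares that follow are of this wider sum. Among its UMIs, CLDN4 made up 40.4% and 43.2% and CLDN3 36.1% and 34.3% in the pools of 320 µM persister cells, against 19.2% and 17.4% and 18.0% and 14.7% in 10 µM persister cells. In 320 µM adapted cells CLDN12 had the largest share, 20.2% and 19.9%.

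Claudins outside the 7 took a large part. CLDN11, a claudin of myelin and testis, led control with 30.4% and 33.1% of claudin UMIs, at 62.3 and 68.8 CPM. It was lower than control in all 4 treated conditions, with log2 changes of -1.03 and -2.74 in 10 and 320 µM persister and -1.59 and -3.57 in 10 and 320 µM adapted cells (edgeR adjusted p = 0.000271, 1.66e-07, 1.07e-06 and 4.23e-09). CLDN16, a claudin of kidney tubules needed for magnesium uptake, led 10 µM persister cells with 38.6% and 36.5%. It held 43.6 and 39.8 CPM in control, 219.7 and 222 CPM in 10 µM persister, 31.9 and 32.5 CPM in 320 µM persister, 13.1 and 13.7 CPM in 10 µM adapted and 6.14 and 7.08 CPM in 320 µM adapted cells. That is the order of CLDN1, its neighbour on chromosome 3, except that control lies above 320 µM persister cells. Over the 10 sums the log2 CPM of CLDN1 and CLDN16 had a Pearson r of 0.97, and that of CLDN3 and CLDN4 of 0.89; the sums share conditions and pools, so both are descriptions.

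Of the 17 other claudins, 6 were tested, 4 had 0 UMIs and 7 had too few UMIs to test, none of these with more than 17 over the 10 sums. Against control, 2 were higher and 1 lower in 10 µM persister, 1 and 2 in 320 µM persister, 3 and 2 in 10 µM adapted and 1 and 2 in 320 µM adapted cells. The all-gene shares given above for these comparisons, in the same order, were 27.3%, 26.3%, 33.7% and 37.6% higher and 29.3%, 28.3%, 33.4% and 36.9% lower. CLDN15 reached 8.88 and 7.41 CPM in 10 µM adapted cells, with 1.33 and 1.36 CPM in control. CLDN5, an endothelial claudin, held 0.774 and 2.88 CPM in 10 µM persister cells from 3 and 12 UMIs, and CLDN9 1.38 and 1.28 CPM in 320 µM persister cells from 12 and 11 UMIs.

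**Figure D3:**
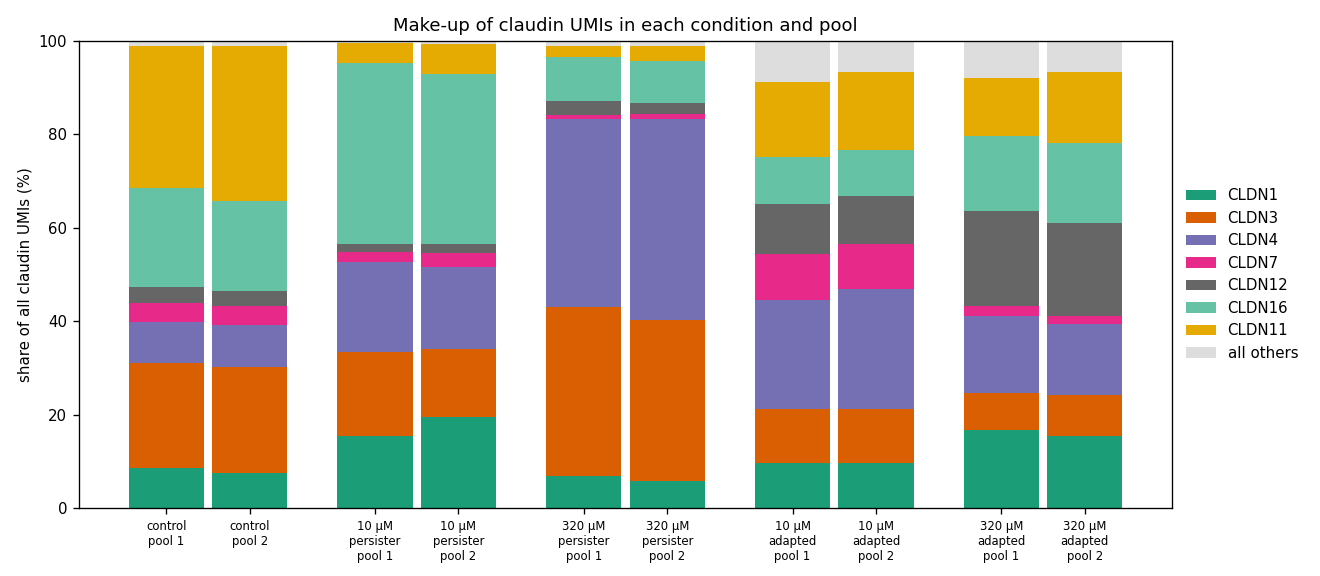
Make-up of all claudin UMIs (vertical axis, percent) in each condition and pool, by named claudin and the remaining claudins together. CLDN11 has the largest part in control, CLDN16 in 10 µM persister cells, CLDN4 in 320 µM persister cells and CLDN12 in 320 µM adapted cells.

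Shares of cells moved with the levels. With each cell thinned to 3000 UMIs (207 shallower cells left out), 23.3% ± 0.134 (SD, n = 2 pools, as for all shares here) of control cells had a UMI of at least 1 of the 7 claudins. The share was 58.1% ± 1.16 in 10 µM persister, 53.6% ± 1.27 in 320 µM persister, 18.4% ± 0.461 in 10 µM adapted and 6.26% ± 0.0931 in 320 µM adapted cells. No conditions overlapped. Without thinning the shares were 49.2%, 85.5%, 85.3%, 40.9% and 17.9% in that order, and median depth was highest in the persister cells. An exact permutation test of 2 values against 2 cannot go below 0.333, so none was made.

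CLDN4 was seen in 5.15% ± 0.275 of control, 23.4% ± 0.866 of 10 µM persister and 30.0% ± 0.547 of 320 µM persister cells. In adapted cells its share was 6.68% ± 0.353 at 10 µM and 1.68% ± 0.117 at 320 µM. CLDN3 was seen in 13.4% ± 0.329 of control and 29.2% ± 0.564 of 320 µM persister cells, and in 0.851% ± 0.0693 of 320 µM adapted cells. CLDN1 was most frequent in 10 µM persister cells, as its level was, with 24.0% ± 3.95 against 4.45% ± 0.408 of control. CLDN7 was seen in 2.40% ± 0.309 of control and 0.237% ± 0.0389 of 320 µM adapted cells. All conditions of a pool were loaded together, so free RNA would reach each of them, and the lowest share of a gene bounds that background. Values in 320 µM adapted cells, the lowest for CLDN1, CLDN3, CLDN4 and CLDN7, cannot be told apart from it.

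More UMIs per cell came with the higher shares. Unthinned, 2.51% and 2.88% of control cells had 2 or more CLDN1 UMIs, against 24.3% and 37.3% of 10 µM persister cells. For CLDN4, 34.0% and 40.3% of 320 µM persister cells had 2 or more, against 3.24% and 3.85% of control cells. CLDN12 stayed between 0.123% and 2.28% in all 10 sums.

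**Figure D4:**
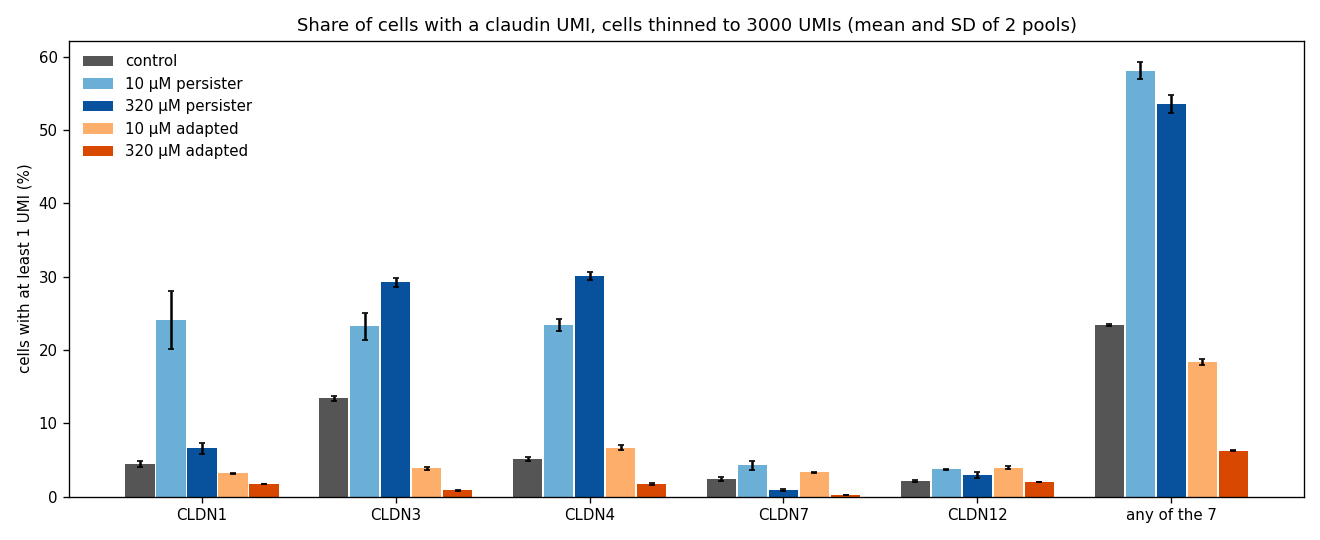
Share of cells (percent) with at least 1 UMI of a claudin after thinning each cell to 3000 UMIs, for each tested claudin and any of the 7; bars are means of the 2 pools and error bars the SD. The share for any of the 7 averages 58.1% and 53.6% in the persister conditions and 6.26% in 320 µM adapted cells.

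Pairs of claudins in the same thinned cell were set against the product of their single shares, as a description, where that product came to at least 5 cells in each pool. CLDN3 and CLDN4 were found together in control cells 2.86 and 2.70 times as often as that product in pools 1 and 2. The ratios were 1.27 and 1.39 in 10 µM and 1.22 and 1.34 in 320 µM persister cells, where both genes are frequent. CLDN3 and CLDN7 had ratios of 2.08 and 2.25 in control. CLDN1 and CLDN3 were near or below the product, at 1.01 and 1.01 for control, 0.864 and 0.788 for 10 µM persister and 0.886 and 1.07 for 320 µM persister cells. CLDN1 and CLDN4 were near it too, at 1.06 and 0.928 in 10 µM and 0.923 and 0.912 in 320 µM persister cells. So were CLDN3 and CLDN12 in control, at 1.02 and 0.924. CLDN1 was found with CLDN16 at 1.79 and 1.83 times the product in control and 1.44 and 1.27 times in 10 µM persister cells. Doublets within a condition are not marked by hashing and may add to such pairs.

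EPCAM, which binds CLDN7, held 4.25 and 5.01 CPM in control, 4.64 and 6.49 CPM in 10 µM persister, 2.64 and 1.40 CPM in 320 µM persister, 11.04 and 11.9 CPM in 10 µM adapted and 1.25 and 1.63 CPM in 320 µM adapted cells. Against control it was higher in 10 µM adapted cells (log2 change 1.31, edgeR adjusted p = 7.35e-09). It was lower in 320 µM persister (-1.19) and 320 µM adapted cells (-1.67), and CLDN7 had the same directions in these conditions. In 10 µM persister cells the EPCAM sums overlapped those of control, while CLDN7 was called higher. In 10 µM adapted cells the 132 and 136 cells with an EPCAM UMI held 34.0 and 33.7 CPM of CLDN7 (here without scaling factors), against 9.96 and 10.6 CPM in the others. CLDN4 stood at 88.6 and 93.7 against 22.6 and 27.1 CPM. CLDN11 was lower with EPCAM, at 7.99 and 9.54 against 21.0 and 24.0 CPM, and CLDN12 stood at 10.7 and 9.54 against 13.4 and 14.4 CPM. Cells with an EPCAM UMI were deeper, with medians of 10391 and 12546 UMIs against 7870 and 8948, and this was not tested. In control CLDN7 stood at 35.2 and 22.7 CPM with EPCAM against 7.44 and 7.97 CPM without. The values were 14.3 and 87.4 against 12.6 and 13.3 CPM in 10 µM persister cells. In 320 µM persister cells they were 8.27 and 40.7 against 2.48 and 2.78 CPM. The 19 and 28 cells with EPCAM in 320 µM adapted cells held 0 CLDN7 UMIs.

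Listed cells were compared with unlisted cells of the same condition and pool. Averaged over the 5 conditions, 4 of the 5 tested claudins were higher in listed cells and 0 lower, where 26.9% of 12892 genes tested were higher, 22% lower and 48.9% called either way. CLDN4 was higher by 1.32 on the log2 scale (SE 0.07, edgeR adjusted p = 2.24e-52) and in 9 of 10 pairs of sums. CLDN7 was higher by 1.26 (SE 0.20, 10 of 10 pairs) and CLDN3 by 0.87 (SE 0.08, 10 of 10 pairs). CLDN1 was higher by 0.73 (SE 0.08, 7 of 10 pairs). Without pool 1 a listed effect shared by all conditions was 0.62, and without pool 2 it was 0.55. A single pool leaves no spread for separate effects per condition, so these fits cannot test whether the call depends on a pool. CLDN12 did not pass (0.16, edgeR adjusted p = 0.237).

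CLDN1 turned between conditions. In control it was lower in listed cells, at 12.6 and 15.95 against 17.2 and 18.7 CPM (log2 change -0.33, edgeR adjusted p = 0.0277), where 13.7% of genes were higher, 17% lower and 30.7% called. In 320 µM persister cells it was higher, at 27.2 and 29.3 against 7.65 and 9.58 CPM (1.71, edgeR adjusted p = 2.54e-13), with 17.9% of genes higher, 19.1% lower and 37% called. It was also called higher in listed 10 µM persister (0.38, though in only 1 of 2 pairs of sums), 10 µM adapted (1.06) and 320 µM adapted cells (0.82). For those conditions 10.4%, 16.7% and 17.2% of genes were higher, 8.94%, 15.7% and 17.4% lower, and 19.3%, 32.5% and 34.6% called. Each of these effects differed from that in control in a test of the difference, by 0.71 and 2.04 for 10 and 320 µM persister and by 1.39 and 1.15 for 10 and 320 µM adapted cells. Such differences were called for 8.9%, 20.8%, 5.77% and 11.9% of all genes. CLDN4, in contrast, was higher in listed control cells, at 33.8 and 34.0 against 9.71 and 10.7 CPM, and in listed 320 µM persister cells, at 181 and 201 against 37.5 and 53.2 CPM.

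**Figure D5:**
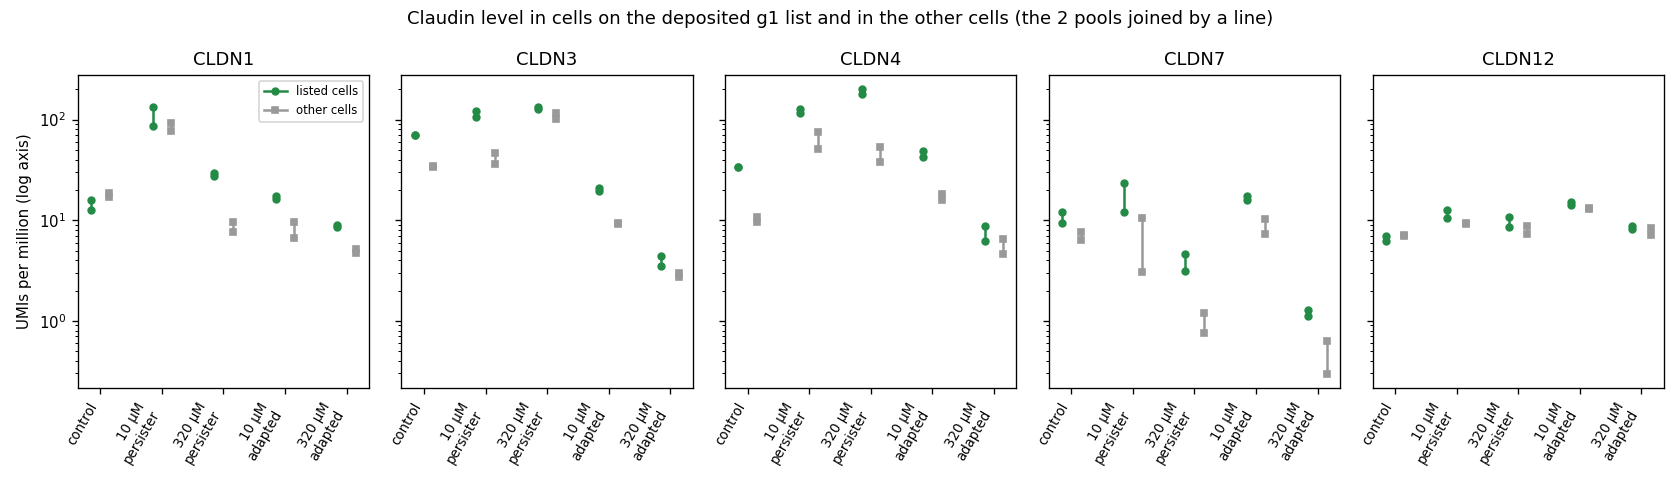
Level of the 5 tested claudins (CPM, log axis) in cells on the deposited g1 list (circles) and in the other cells (squares) of each condition; a line joins the pools. CLDN4 is higher in listed control cells, at 33.8 and 34.0 CPM, and CLDN1 is lower in listed control cells but higher in listed 320 µM persister cells.

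The proteins around the claudins were examined through 35 symbols of tight junction partners, of which 34 were in the table and 32 tested. PALS1 and MPP5 in that list are symbols of the same gene, which was counted as MPP5. Against control, in 10 µM persister cells 3 were higher and 17 lower, in 320 µM persister cells 2 and 12, in 10 µM adapted cells 5 and 17, and in 320 µM adapted cells 4 and 20. Over all genes tested 27.3%, 26.3%, 33.7% and 37.6% were higher and 29.3%, 28.3%, 33.4% and 36.9% lower in these comparisons. The median log2 changes of the list were -0.54, -0.25, -0.29 and -0.89, against medians over all genes of -0.03, -0.01, 0.00 and 0.01. The scaffold TJP1 held 132 and 129 CPM in control. Persister cells held 95.2 and 90.6 CPM at 10 µM and 101 and 93.4 CPM at 320 µM, both below control. In adapted cells it stood at 69.8 and 65.2 CPM at 10 µM and 60.7 and 56.5 CPM at 320 µM. Its log2 changes in 320 µM persister, 10 µM adapted and 320 µM adapted cells were -0.43, -0.95 and -1.16 (edgeR adjusted p = 3.31e-07, 6.99e-15 and 3.92e-17). PARD6B, of the polarity complex, fell from 167 and 164 CPM in control to 75.0 and 77.4 CPM in 10 µM persister cells (log2 change -1.12, edgeR adjusted p = 5.63e-16). It held 107 and 105 CPM in 320 µM persister (-0.64) and 112 and 114 CPM in 10 µM adapted cells. In 320 µM adapted cells it stood at 37.1 and 37.1 CPM (-2.16). LSR, a receptor of tricellular junctions, held 25.1 and 24.7 CPM in control, 7.80 and 9.31 CPM in 320 µM persister and 5.26 and 4.76 CPM in 320 µM adapted cells (log2 changes -1.54 and -2.31), low where CLDN7 was low.

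Other named partners were also lower. AMOTL2, an angiomotin, fell by 0.69, 0.67 and 0.63 on the log2 scale in persister cells at 10 and 320 µM and adapted cells at 10 µM. MPDZ, a multi-PDZ scaffold, fell by 1.14 and PRKCI, the polarity kinase, by 0.57 in 10 µM persister cells. PATJ, a polarity scaffold, fell by 1.29 in 10 µM and 2.20 in 320 µM adapted cells, and CXADR, a junction receptor, by 1.01 in 10 µM adapted cells.

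Against persister cells of the same dose, 10 partners were higher and 10 lower in adapted cells at 10 µM, and 5 and 19 at 320 µM. All genes gave 31.4% and 34.1% higher and 29.3% and 32.6% lower, so the counts at 10 µM are near the all-gene shares. The medians of the partners were 0.07 and -0.62, and of all genes 0.06 and 0.03. YBX3 (ZONAB, a factor that binds ZO-1) was higher at both doses, by 0.58 and 1.06, and TJP1 fell by 0.46 and 0.73. PARD6B went opposite ways, with 0.57 at 10 µM and -1.51 at 320 µM. Between doses, 13 partners were higher at 320 µM and 1 lower among persister cells, MPP5 (0.78) and MPDZ (0.90) among the former and LSR (-2.11) the latter. Among adapted cells 6 were higher and 15 lower, SYMPK, a junction and RNA-processing protein, among the latter (-0.95). For all genes the shares were 25.3% higher and 24.4% lower among persister and 33.4% and 32.4% among adapted cells. Medians were 0.32 and -0.53 for the partners and 0.03 and 0.02 for all genes.

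A second list held 24 genes that stabilise claudins or regulate epithelial genes, 19 of them tested. Higher and lower calls against control were 7 and 4 in 10 µM persister, 2 and 7 in 320 µM persister, 9 and 10 in 10 µM adapted and 5 and 12 in 320 µM adapted cells, with medians of 0.27, -0.52, -0.51 and -1.67. The shares of all genes were 27.3%, 26.3%, 33.7% and 37.6% higher and 29.3%, 28.3%, 33.4% and 36.9% lower, with medians of -0.03, -0.01, 0.00 and 0.01. ELF3, an epithelial ETS factor, rose from 7.83 and 7.08 CPM in control to 189.8 and 156 CPM in 10 µM persister cells (log2 change 4.53, SE 0.10, edgeR adjusted p = 4.40e-23). It held 25.0 and 27.8 CPM in 320 µM persister cells (1.82), so its highest condition was that of CLDN1. SPINT2, an inhibitor of the protease matriptase, fell from 353 and 344 CPM in control to 11.02 and 10.05 CPM in 320 µM adapted cells (-5.05, SE 0.06, edgeR adjusted p = 1.35e-31).

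Among repressors of epithelial genes, SNAI1 held 27.0 and 28.0 CPM in 320 µM adapted and 10.5 and 10.6 CPM in control cells (log2 change 1.38, edgeR adjusted p = 8.42e-14). ZEB1 held 37.8 and 36.5 CPM against 18.1 and 20.6 CPM (0.94, edgeR adjusted p = 7.80e-12). ZEB2 held 3.38 and 4.30 against 1.81 and 2.04 CPM (0.997, edgeR adjusted p = 7.63e-05), and was higher still in 10 µM persister cells, at 8.25 and 10.1 CPM (2.25), where the sum of the 7 claudins was highest. SNAI2 held 1.50 and 1.16 against 1.19 and 1.27 CPM and was not called there (0.10, edgeR adjusted p = 0.753), and held 7.64 and 7.99 CPM in 10 µM adapted cells (2.65). ZEB1 was also higher in 320 µM persister (0.36) and 10 µM adapted cells (0.24), and CLDN3 and CLDN4 were high in the former. KLF5, an epithelial factor, fell by 1.39 in 10 µM and 1.15 in 320 µM adapted cells. Whether any of these factors acts on the claudins was not tested.

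Genes whose level over the 10 sums was most like that of each claudin were found by Pearson r of log2 CPM, among 5271 to 5272 genes of at least 20 CPM on average. For CLDN1 they were S100A11 (0.99), ADAM17 (0.99) and PLIN2 (0.99). For CLDN3 they were BTF3L4 (0.99), PPCS (0.99) and GLOD4 (0.98), and for CLDN4 STK16 (0.99), KRCC1 (0.98) and TMEM59 (0.98). The genes most like CLDN7 were HSPB1 (0.99), SNCG (0.99) and CRABP2 (0.99), and those most like CLDN12 TMEM243 (0.97), TRPT1 (0.95) and EML2 (0.95). The 10 sums are 5 conditions in 2 pools, so few independent points stand behind each r.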

How the data were processed

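Droplet 3′ single-cell RNA libraries of 2 hashed pools were measured. The authors deposited 1 table of raw UMI counts per gene and cell, made with Cell Ranger 3.1 and Seurat on hg38 per the submitters' processing notes; the cell filter is not given in the sources used here, and no cell had under 502 genes. Other deposited values used were cell barcodes and the g1 cell list with its per-cell totals. The UMI and gene totals of that list equalled those of the count table for only 37 of its 7762 cells. Condition and pool names were equal for all 7762. Why the totals differ was not tested. Hashtag sequences were not used, and no doublet caller was run. Condition and pool came from the cell names.

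Counts were summed per condition and pool and tested with edgeR 4.0.16 (limma 3.58.1, R 4.3.3): TMM scaling, quasi-likelihood F tests in 1 fit over the 10 sums with 5 residual degrees of freedom, and Benjamini-Hochberg adjustment over all 13330 genes, called under 0.05. Cells split by the g1 list were fitted likewise over 20 sums. Shares used cells thinned to 3000 UMIs. Scripts were tested on simulated data. Sums of the same pool deviated together (pairwise r 0.33 to 0.61 over 2730 genes of at least 50 CPM), so the pool was also fitted as a block.

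Members and gene lists were chosen with earlier results of these data known. Named were the 7 claudins, other claudins of at least 1 CPM in a condition, EPCAM as a binder of CLDN7, and the 3 genes most like each claudin. Of each list up to 4 members per comparison were named, with the lowest p among those called with at least 20 CPM. ZEB2 and SNAI2, both under 20 CPM, were named outside this rule, beside ZEB1 and SNAI1. Alternatives were library totals, no count filter, the block, DESeq2 1.42.0, the compared sums alone, thinned sums, other thinning depths and each sum left out. Listed cells were also taken alone. Added after seeing the data were unlisted cells alone, the difference of dose effects, the list comparison by condition, and the counts of claudin pairs and of cells with EPCAM. Python 3.11.15, numpy 2.4.6, scipy 1.17.1 and pandas 2.3.3 were used. Endothelial markers summed to at most 9.61 CPM and mesothelial markers to 133 and 126 CPM in control and 3.32 and 3.60 CPM in 320 µM adapted cells.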

Additional observations from a re-analysis of the deposited data

Results flagged for a closer look

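The effect of dose differed between adapted and persister cells, in a test of the difference itself, for CLDN1 (log2 difference 1.22, edgeR adjusted p = 2.53e-05), CLDN3 (-2.57), CLDN4 (-2.81) and CLDN7 (-1.76). CLDN3 and CLDN4 were higher at 320 than at 10 µM among persister cells and lower among adapted cells, while CLDN1 and CLDN7 were lower at 320 µM in both.

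The difference between cells on and off the deposited g1 list was not the same in treated as in control cells, again by a test of the difference. For CLDN1 it was larger than in control by 0.71 in 10 µM persister, 2.04 in 320 µM persister, 1.39 in 10 µM adapted and 1.15 in 320 µM adapted cells (edgeR adjusted p = 0.00318, 3.89e-13, 2.51e-08 and 7.48e-05). For CLDN4 the departure from control was -0.79 among 10 µM persister cells and -1.27 among 320 µM adapted cells (edgeR adjusted p = 0.0016 and 6.22e-06). For CLDN3 it differed by -0.78 in 320 µM persister cells (edgeR adjusted p = 1.83e-09).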

How the results depend on the processing

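Of 570 alternative values of log2 changes of the 5 tested claudins, 536 kept their direction and side of the threshold, 21 lost the call, 5 gained it and 8 changed sign; of 1000 for other named genes the numbers were 950, 47, 0 and 3. Changes of sign in unlisted cells were CLDN7 in 10 µM persister against control (-0.019), CLDN1 in 320 µM persister against control (-1.06), CLDN7 in 10 µM adapted against persister (0.34), and CLDN4 (-0.55) and KLF5 (-0.034) between persister doses, and SPINT2 in 10 µM persister against control (-0.21). In listed cells alone they were CLDN1 in 10 µM adapted (0.27) and CLDN16 in 320 µM persister cells against control (0.087). Library totals without TMM moved the median of all genes by -0.28 to 0.12 and gave -0.014 for CLDN12 in 320 µM adapted against control, sums thinned to the shallowest gave 0.022 for CLDN12 in 320 µM adapted against persister cells, and leaving out 1 sum at a time moved CLDN7 in 10 µM adapted against persister cells between -0.49 and 0.18. The cause was not tested for any of these.

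Claudins called in 10 µM persister against control cells fell from 5 to 2 in unlisted cells and ranged from 3 to 5 with 1 sum left out; in 320 µM persister cells they fell from 5 to 3 in thinned sums and ranged from 3 to 5. Thinned sums and sums of unlisted cells have fewer UMIs than the full sums. A fit with 1 sum left out assumes that the lone sum varies like the other conditions. The counts in this paragraph stand without the share of all genes called under the same setting. A drop in them is therefore not a result about the listed genes. Of the tight junction partners, unlisted cells gave 10 calls (from 20) in 10 µM persister against control, 10 (from 20) in 10 µM adapted against persister, 7 (from 14) between persister doses and 10 (from 20) for the difference of dose effects; thinned sums gave 9 (from 14) in 320 µM persister against control. Of the stabilisers and regulators, unlisted cells gave 6 (from 11), 5 (from 10), 9 (from 14), 7 (from 12) and 5 (from 10) for 10 µM persister against control, adapted against persister at 10 and at 320 µM, persister doses and the difference. Thinned sums gave 6, 10, 11, 9 and 9 for 10 µM persister, 10 µM adapted and 320 µM adapted against control, 320 µM adapted against persister and adapted doses (from 11, 19, 17, 14 and 15), and DESeq2 gave 12 for 10 µM adapted cells.

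Shares of cells with a UMI of the 7 claudins, in the order control, 10 and 320 µM persister, 10 and 320 µM adapted, were 49.2%, 85.5%, 85.3%, 40.9% and 17.9% unthinned, 13.5%, 37.3%, 35.0%, 10.2% and 3.21% at 1500 UMIs, 32.8%, 73.7%, 68.2%, 28.4% and 10.04% at 5000 UMIs and 28.9%, 60.5%, 57.4%, 21.1% and 6.74% in listed cells. With the pool as a replicate block, CLDN12 was called in the difference of dose effects (-0.52, edgeR adjusted p = 0.0475); the block changed no other claudin call. Depth limits CLDN7 in 320 µM adapted cells, at 13 and 12 UMIs, and CLDN6 and CLDN10 throughout.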
